A study of Mus musculus with 24 samples.

Results

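Bhlhe40 and Bhlhe41 are the paired genes described here, 2 of the 54432 genes listed in the deposited tables, followed across all 24 libraries. They were taken by their Ensembl identifiers, matched to GENCODE M21 symbols. The pair was selected on Bhlhe41's unusually large share of the counts, so that share is given as a description and is not tested. The libraries come from mpkCCD cells, an immortalised mouse cortical collecting duct line of C57BL/6 origin and wild-type genotype, used at passages 10 to 11. Cells of all groups were cultured on filters for 6 days and then held in minimal medium for 24 h. dDAVP, a vasopressin analogue that acts on the V2 receptor, or vehicle was then given from the basolateral side. Cells were collected at 3, 6, 12 or 24 h, with 3 libraries in each of the 8 groups. The line is a single cultured model of the principal cell, and the labels do not say whether the 3 libraries of a group came from separate cultures, so the p-values below reflect variation among libraries that could be technical.

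Bhlhe40 (also known as DEC1, SHARP2 or STRA13) and Bhlhe41 (DEC2 or SHARP1) encode closely related basic helix-loop-helix proteins of the Orange-domain class. They bind E-box DNA and act mainly as transcriptional repressors. They lower transcription driven by CLOCK and BMAL1, which places them in a feedback arm of the circadian clock, and both genes are known to respond to hypoxia. Bhlhe40 is in addition a widely responsive early gene in many cell types, while Bhlhe41 is best known for its association with short sleep.

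Both genes lie on chromosome 6 of GRCm38, far apart. Bhlhe40 (ENSMUSG00000030103) spans chr6:108660629-108666925 on the plus strand, and Bhlhe41 (ENSMUSG00000030256) spans chr6:145858243-145865558 on the minus strand. Because these proteins act through E-boxes (CANNTG) and bind CACGTG well, the 112 bases just before the annotated start of Bhlhe41 are shown, from the RefSeq promoter table on GRCm38.p6, chr6:145865559-145865670, minus strand, with CACGTG in capitals.
Bhlhe41 promoter: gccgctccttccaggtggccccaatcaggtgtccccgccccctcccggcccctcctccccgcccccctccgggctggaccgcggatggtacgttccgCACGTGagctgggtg
The letters CACGTG, which read the same on both strands, start at base 98 of this stretch (chr6:145865568-145865573). They occur in 654 of 32851 promoter windows of the same length, or 1.99%. Each window is the 112 bases farthest upstream in a gene's promoter entry. For other genes it need not end at the annotated start, so the windows are matched in length but not in distance from the start. The looser form CANNTG, which reads the same on both strands, occurs at 2 further places in this stretch and in 39.6% of the windows. The cAMP response element letters TGACGTCA, found in 0.21% of these windows, and their core TGACG, found on either strand in 6.04%, are not in this window of Bhlhe41. The core is contained in the full element, so the 2 searches overlap.

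The longest annotated transcripts of the pair have coding parts of nearly the same length but unlike tails. Bhlhe40-201 has 5 exons, 3113 bases and a coding part of 1236 bases, with a 3′ untranslated region of 1593 bases. Bhlhe41-201 also has 5 exons, but 6133 bases, with a coding part of 1233 bases and a 3′ untranslated region of 4609 bases. That region of Bhlhe41 holds an unbroken run of 39 T, at chr6:145862019-145862057 in exon 5, while the longest T run of Bhlhe40-201 is 7 bases. The other Bhlhe41 transcripts, of 744 and 690 bases, lack the 39-base run. Both genes overlap another annotated gene: the antisense 0610040F04Rik covers the start of Bhlhe40, and the unverified Gm43909, on the opposite strand, lies within Bhlhe41. The sources used here do not say that counting used strand, so reads in the shared parts cannot be assigned with certainty, but both overlapping genes were near the floor (medians of 0.522 and 0.323 TPM), and the T run lies outside Gm43909.

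Library totals were 17248060 to 27642311 estimated counts, with 36713 to 46313 genes above 0. Genes of the olfactory and vomeronasal receptor families (1730 genes named Olfr or Vmn, normally silent in kidney epithelium) took 0.138 to 0.917% of the counts, from 0.20% ± 0.074 (SD, n = 3) in dDAVP at 6 h to 0.64% ± 0.261 in vehicle at 3 h. This receptor share moved with the groups, and it is given beside the results it touches. Collecting duct and epithelial markers were present: 13 of 16 had a median above 1 TPM, and their summed level was 1929 to 2350 TPM in vehicle and 2072 to 2329 TPM in dDAVP. Markers of intercalated cells, fibroblasts, immune cells, endothelium and proximal tubule summed to at most 9.97 TPM for any of these 5 types in any library. Aqp2, the vasopressin-regulated water channel, was 2.46 ± 0.698 to 3.46 ± 0.121 TPM in the vehicle groups and 57.7 ± 1.19 to 94.6 ± 7.41 TPM in the dDAVP groups (SD, n = 3).

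Bhlhe41 was among the most heavily counted genes of these cells. It took 0.352 to 1.32% of all counts (median 0.678%) and ranked 3 to 14 among all genes by count. Per length it ranked lower, with 296.5 to 1358 TPM (median 651.7) and a rank of 35 to 228. Averaged over libraries only Lars2 and the ribosomal RNA gene CT010467.1 had more counts, and the mitochondrial mt-Co3 and the elongation factor gene Eef1a1 had fewer. Bhlhe40 took 0.00550 to 0.0127% of the counts and had 12.89 to 25.14 TPM (median 16.63). Per length, Bhlhe41 was 13.2 to 100.9 times Bhlhe40 in the same library. In the bulk RNA, a level per cell and a share of cells expressing a gene cannot be told apart.

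In the vehicle libraries of 3 h Bhlhe40 read 41.6, 60.2 and 61.5 CPM (counts scaled to a common library size by the TMM method), followed by 62.9, 75.1 and 72.8 CPM (6 h), 65.2, 93.1 and 81.5 CPM (12 h) and 69.5, 105.3 and 68.8 CPM (24 h). The dDAVP libraries of 3 h read 69.6, 122 and 102.2 CPM of Bhlhe40, followed by 101.1, 156.2 and 104.3 CPM (6 h), 97.5, 104.4 and 102.1 CPM (12 h) and 75.9, 77.4 and 68.8 CPM (24 h). Every dDAVP library was above every vehicle library of its time at 3, 6 and 12 h, while at 24 h the groups overlapped. How many of all genes separated in this way was not counted, and at 6 h 38.1% of genes were called. The lowest value of all was the first vehicle library at 3 h, which also had the highest receptor share, and the highest was the second dDAVP library at 6 h, which had the lowest.

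Bhlhe40 was higher with dDAVP at 3 and 6 h and was not called at 12 or 24 h. Its mean went from 54.4 ± 11.1 to 97.9 ± 26.5 CPM at 3 h (SD, n = 3), a log2 difference of 0.85 ± 0.20 (SE, edgeR quasi-likelihood test, adjusted p = 0.0482), beside 0.484% of 29743 genes called at that time. At 6 h it went from 70.3 ± 6.47 to 120.5 ± 30.9 CPM, a log2 difference of 0.78 ± 0.20 (adjusted p = 0.0175), where 38.1% of genes were called. At 12 h the difference was 0.34 ± 0.20 (adjusted p = 0.917, 0.0773% of genes called), and at 24 h it was -0.13 ± 0.20 (adjusted p = 1, 0.0841% called). Over the 4 times the mean effect was 0.46 ± 0.098 (adjusted p = 0.00747), a comparison in which 33.1% of genes were called. The dependence of the effect on time did not pass (adjusted p = 0.307, 0.343% of genes called). The call at 3 h lies just inside the threshold: it was lost in 19 of the 24 fits that left out 1 library, with differences of 0.67 to 1.06, and it was lost without the 2 libraries of highest receptor share (0.68, adjusted p = 0.319). The call at 6 h was lost in 4 of these 24 fits, those without the first or second library of either 6 h group, and without the second dDAVP library it was 0.47 (adjusted p = 0.154).

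The size of the Bhlhe40 response depended on the scale. Genes of at least 5 CPM had a median difference of 0.333 at 6 h and 0.185 at 3 h with dDAVP, so the Bhlhe40 values at these times stood above a general upward displacement of well-expressed genes. TPM gives each library a fixed total per length. A large part of that total fell to 1 miRNA gene, Gm24245 (mean of 456900 TPM), so the TPM of every other gene also depends on it. In TPM, Bhlhe40 was 13.46, 15.8 and 14.02 in vehicle at 3 h and 16.49, 25.14 and 21.41 with dDAVP. The TPM groups at 3 h did not overlap, and the difference in log2(TPM + 1) was 0.50 (limma, adjusted p = 0.125). At 6 h Bhlhe40 was 16.3, 17.77 and 15.23 TPM in vehicle and 16.54, 22.48 and 16.73 TPM with dDAVP. These 6 h groups overlapped, and the difference was 0.16 (limma, adjusted p = 0.418). At 12 h the TPM means were 18.2 ± 1.03 and 20.8 ± 1.37, and at 24 h they were 15.3 ± 2.72 and 13.8 ± 1.38 (SD, n = 3).

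On the same scale Bhlhe41 ranged from 3884 to 10800 CPM. Its vehicle libraries of 3 h read 9425, 7195 and 6574 CPM, followed by 7513, 8049 and 6422 CPM (6 h), 10800, 3884 and 10670 CPM (12 h) and 4480, 4576 and 5640 CPM (24 h). Its dDAVP libraries of 3 h read 6156, 4599 and 5997 CPM, followed by 4635, 4323 and 4789 CPM (6 h), 7855, 9141 and 8148 CPM (12 h) and 5120, 6381 and 7935 CPM (24 h). The dDAVP libraries were all below the vehicle libraries at 3 and 6 h, and the groups overlapped at 12 and 24 h. The share of all genes that separated likewise was not counted. The second vehicle library at 12 h stood far below its 2 partners, with a receptor share of 0.181% against their 0.758 and 0.516%.

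Bhlhe41 was lower with dDAVP at 6 h and was not called at the other times. At 6 h its mean fell from 7328 ± 829 to 4582 ± 237 CPM (SD, n = 3), a log2 difference of -0.68 ± 0.26 (SE, edgeR, adjusted p = 0.0434). In TPM the means at 6 h were 785.4 ± 133.5 and 340.6 ± 38.3 (SD, n = 3), a difference in log2(TPM + 1) of -1.20 (limma, adjusted p = 0.0595). The difference was -0.47 ± 0.26 at 3 h (adjusted p = 0.369), -0.01 ± 0.26 at 12 h (adjusted p = 0.995) and 0.40 ± 0.26 at 24 h (adjusted p = 1). The mean effect was -0.19 ± 0.13 (adjusted p = 0.225). Of the 24 fits that left out 1 library, only 1 called it, that without the second vehicle library of 12 h (-0.28, adjusted p = 0.00861). The dependence on time gave an adjusted p of 0.622. The effect at 6 h lies in a comparison in which 6203 genes were called higher and 5117 lower, and in log2(TPM + 1) 44 higher and 626 lower. It was lost under another scaling of the library sizes (relative log expression, -0.57, adjusted p = 0.0674) and in 6 of the 24 fits without 1 library (the first or second of either 6 h group, the second vehicle library of 3 h or the first of 24 h), and it turned positive with the receptor share in the model, as given below.

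**Figure D1:**
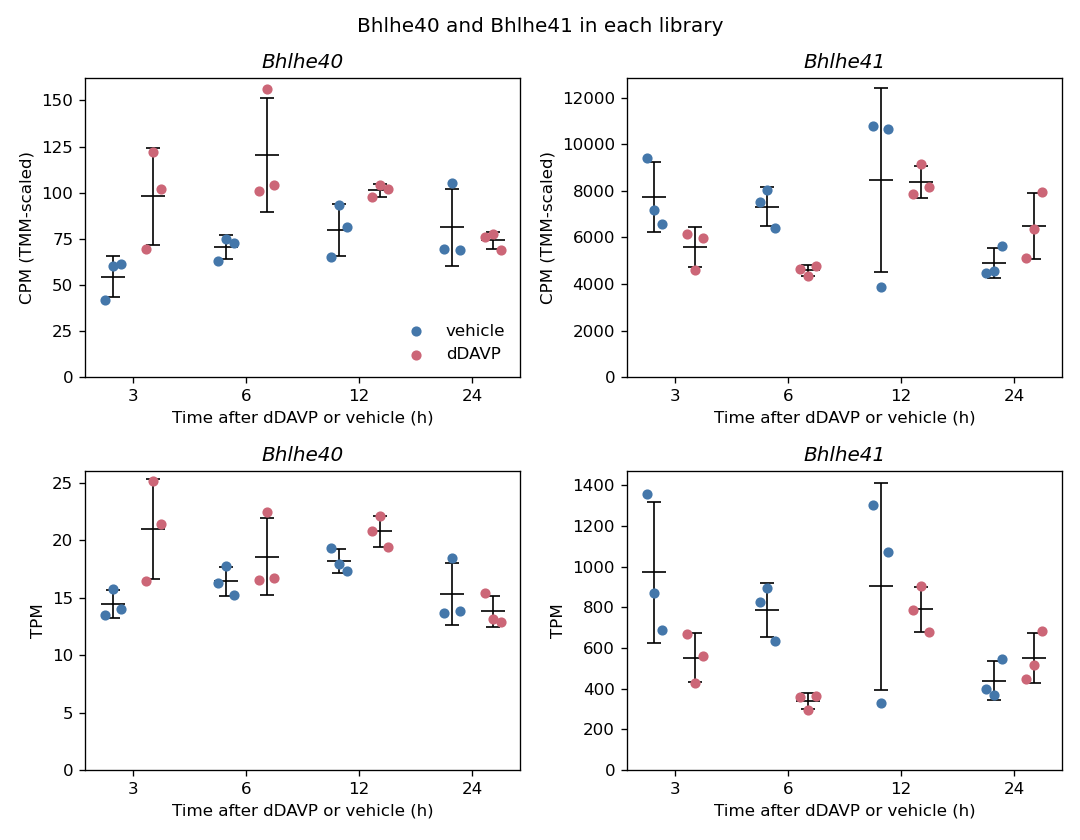
Levels of Bhlhe40 (left) and Bhlhe41 (right) in each of the 24 libraries by time in hours, in TMM-scaled CPM (top) and TPM (bottom). Points are libraries, blue for vehicle and red for dDAVP, and black bars are the mean and SD of 3. Bhlhe40 lies higher with dDAVP at 3, 6 and 12 h in CPM, Bhlhe41 lies lower at 3 and 6 h, and the second vehicle library at 12 h has the lowest Bhlhe41 CPM, 3884.

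The pair also differed between times in vehicle alone, in opposite directions in CPM. From 3 to 24 h Bhlhe40 rose by 0.58 ± 0.20 on the log2 scale (edgeR, adjusted p = 0.0284) and Bhlhe41 fell by 0.66 ± 0.26 (adjusted p = 0.0474), in a comparison that called 38% of genes. The test over all 4 vehicle times called neither (adjusted p = 0.109 for Bhlhe40 and 0.116 for Bhlhe41), with 10.1% of genes called. Of the 24 fits without 1 library, only that without the second vehicle library of 12 h called Bhlhe41 (adjusted p = 0.00168). In dDAVP the change from 3 to 24 h was -0.40 ± 0.20 for Bhlhe40 (adjusted p = 0.224) and 0.21 ± 0.26 for Bhlhe41 (adjusted p = 0.592), with 1.3% of genes called. The test over the 4 dDAVP times gave adjusted p of 0.161 and 0.172, with 2.28% called. For Bhlhe41 it gave 0.00442 without that vehicle library, the only 1 of these 24 fits that called it. Leaving out 1 library ended the vehicle call of Bhlhe40 in 3 of 24 fits (without the first vehicle library of 3 h or the first or second of 24 h, the latter at 0.35, adjusted p = 0.191) and that of Bhlhe41 in 18 of 24. In log2(TPM + 1) the vehicle change was 0.07 for Bhlhe40 (limma, adjusted p = 0.719), from a mean of 14.4 to 15.3 TPM, and -1.11 for Bhlhe41 (adjusted p = 0.0416), from 972.4 to 438.4 TPM. The CPM differences in vehicle went together with a fall in the mean receptor share from 0.64 to 0.23%. Without the 2 libraries of highest receptor share they were 0.41 for Bhlhe40 (adjusted p = 0.144) and -0.49 for Bhlhe41 (adjusted p = 0.161).

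Across the 24 libraries Bhlhe41 followed the receptor share. Pearson's r between log2 CPM of Bhlhe41 and the log2 share was 0.752 (permutation p = 7e-05, adjusted p = 0.00021 over 3 relations), and Spearman's rho was 0.744 (permutation p = 3e-05, adjusted p = 9e-05). Leaving out the 2 libraries farthest from the median share left r at 0.702. The permutations disregarded the groups, so these p-values also take in differences between groups. Within groups, after each group's mean was taken out, r was 0.832. In the 12 vehicle libraries r was 0.922 and in the 12 dDAVP libraries 0.469. The 8 vehicle libraries with shares of 0.398 to 0.917% had 6422 to 10800 CPM of Bhlhe41, and the 3 with shares of 0.181 to 0.199% had 3884 to 4576 CPM. At a like receptor share, the dDAVP libraries of 12 and 24 h lay high: the second dDAVP library at 24 h had 6381 CPM at a share of 0.155%, above all 3 of those vehicle libraries.

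Bhlhe40 ran the other way in CPM. Its r with the log2 share was -0.636 (permutation p = 0.00092, adjusted p = 0.0014) and its rho -0.595 (permutation p = 0.0024, adjusted p = 0.0036), with -0.699 within groups and -0.438 without the 2 farthest libraries. In the vehicle libraries alone r was -0.702, and in the dDAVP libraries alone it was weaker, at -0.287. Written in log2 TPM the r of Bhlhe40 was -0.049 (permutation p = 0.82), and with plain library totals it was -0.31 (permutation p = 0.139), so the size of the inverse relation of Bhlhe40 depended on the scaling. The relation between both genes was weaker: r was -0.479 (permutation p = 0.018, adjusted p = 0.018) and rho -0.422 (permutation p = 0.041, adjusted p = 0.041), and r was -0.513 within groups and -0.32 without the 2 libraries farthest from the median.

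**Figure D2:**
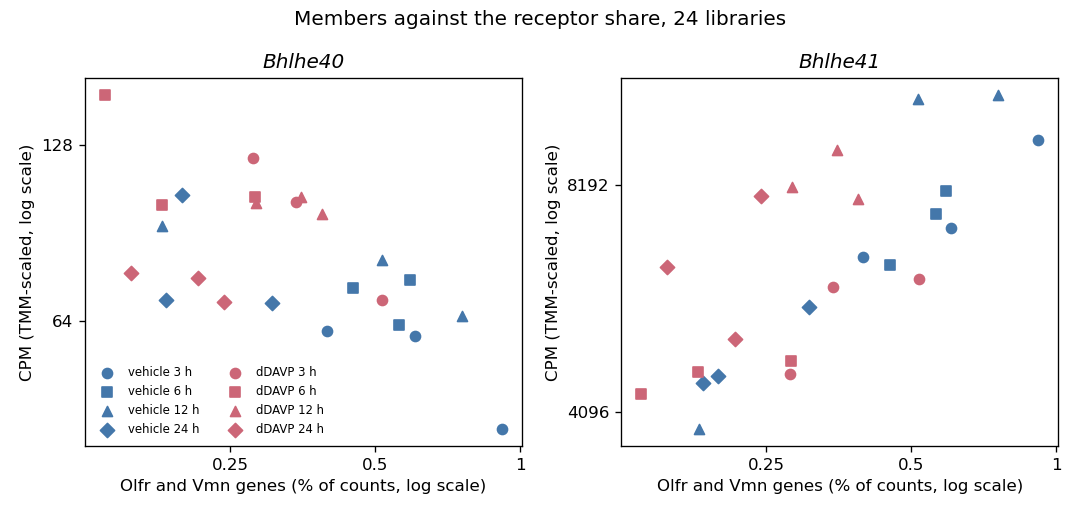
TMM-scaled CPM of Bhlhe40 (left) and Bhlhe41 (right) against the percent of counts in Olfr and Vmn genes, both axes on a log scale, with 1 point per library, blue for vehicle and red for dDAVP, and a symbol for each time. Bhlhe41 climbs with the share (r = 0.752) and Bhlhe40 declines (r = -0.636). The dDAVP libraries of 12 and 24 h lie above most others of a like share for Bhlhe41.

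The receptor share was then added to the edgeR model as a covariate, so that each effect is read at a common share. Per doubling of the share within groups, Bhlhe41 changed by 0.54 ± 0.079 (SE, adjusted p = 1.96e-06) and Bhlhe40 by -0.36 ± 0.078 (adjusted p = 0.000232), in a test that called 75.3% of genes. Without the second vehicle library of 12 h the slope of Bhlhe41 was 0.34 (adjusted p = 0.000656). The slope of Bhlhe41 was above that of 56.8% of all 29743 genes tested, whose median was 0.373, and so near the middle of them. It was above that of 91.5% of the 11904 genes of at least 5 CPM, whose median was -0.221, and above that of 10.1% of the 1013 receptor genes tested, whose median was 0.806. The receptor genes make up the share, so their positive slopes follow from how it is built. The slope of Bhlhe40 was among the lowest, with 2.01% of the genes of at least 5 CPM below it, but it was not called when only genes of at least 5 CPM were scaled and tested (-0.18, adjusted p = 0.0588) nor in log2(TPM + 1) (-0.08, limma, adjusted p = 0.417).

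Read at a common share, the early effects on both genes were smaller or changed sign. The Bhlhe40 effect was 0.58 ± 0.15 at 3 h (adjusted p = 0.0771, 0.726% of genes called), 0.23 ± 0.18 at 6 h (adjusted p = 0.935, 0.336% called), 0.25 ± 0.14 at 12 h (adjusted p = 0.752, 0.296% called) and -0.18 ± 0.14 at 24 h (adjusted p = 0.764, 0.35% called). Its mean effect was 0.22 ± 0.087 (adjusted p = 0.45, 1.23% called). The Bhlhe41 effect was -0.07 ± 0.14 at 3 h (adjusted p = 0.978), 0.14 ± 0.18 at 6 h (adjusted p = 0.974), 0.27 ± 0.14 at 12 h (adjusted p = 0.701) and 0.49 ± 0.13 at 24 h (adjusted p = 0.146), with a mean of 0.21 ± 0.086 (adjusted p = 0.483). The dependence on time passed for neither gene (adjusted p = 0.345 for Bhlhe40 and 0.713 for Bhlhe41, 0.256% called). Since the share itself differed between the groups, a dDAVP effect and the share cannot be fully told apart at 6 h, where every vehicle library had a higher share than every dDAVP library.

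**Figure D3:**
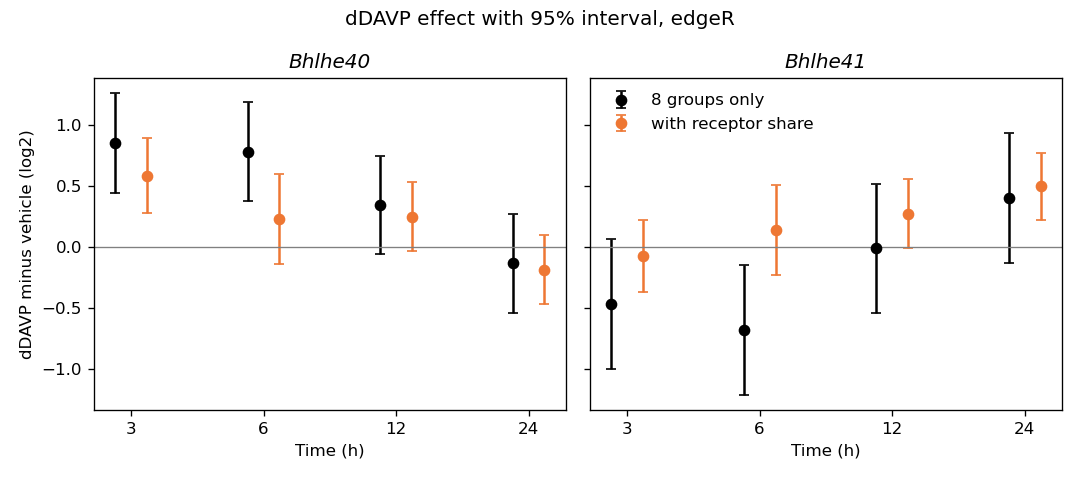
dDAVP minus vehicle on the log2 scale for Bhlhe40 (left) and Bhlhe41 (right) at each time in hours, with 95% intervals from edgeR, from the model with the 8 groups alone (black) and with the receptor share added (orange). The Bhlhe40 effect shrinks at 6 h from 0.78 to 0.23, and the Bhlhe41 effect at 6 h goes from -0.68 to 0.14.

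With the share as covariate, both genes differed between 3 and 24 h of dDAVP. From 3 to 24 h of dDAVP Bhlhe40 fell by 0.70 ± 0.15 (edgeR, adjusted p = 0.00696) and Bhlhe41 rose by 0.69 ± 0.15 (adjusted p = 0.00693), with 4% of genes called. The test over the 4 dDAVP times called both (adjusted p = 0.00225 for Bhlhe40 and 0.00129 for Bhlhe41), with 9.01% called. In vehicle the same contrast was 0.07 ± 0.18 for Bhlhe40 (adjusted p = 0.953) and 0.13 ± 0.17 for Bhlhe41 (adjusted p = 0.891), with 0.699% called, and the test over the 4 vehicle times gave adjusted p of 0.32 and 0.499, with 2.6% called. The difference between dDAVP and vehicle in this course is the dependence on time given above, which passed for neither gene. Without the covariate the dDAVP changes were -0.40 and 0.21, and neither was called. Every dDAVP library of 3 h had a higher share (0.2796 to 0.5178%) than every dDAVP library of 24 h (0.1555 to 0.2433%). Time and share thus cannot be fully told apart in this contrast. The covariate has a common slope for all groups. Yet r of Bhlhe41 with the share was 0.922 in vehicle and 0.469 in dDAVP, and that of Bhlhe40 -0.702 and -0.287.

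The ratio of Bhlhe41 to Bhlhe40 counts within a library does not depend on the scaling between libraries. It is not free of the receptor share, on which Bhlhe41 and Bhlhe40 had slopes of 0.54 and -0.36. The mean share was 0.64% in vehicle and 0.38% with dDAVP at 3 h, and 0.53 and 0.20% at 6 h. The part of the share in the ratio was not tested. The ratio was 226.4, 119.6 and 106.9 in vehicle at 3 h and 88.5, 37.7 and 58.7 with dDAVP, and at 6 h it was 119.4, 107.2 and 88.2 in vehicle and 45.8, 27.7 and 45.9 with dDAVP. At both times every dDAVP library lay below every vehicle library, but how often other gene pairs separate in this way was not counted. At 12 h the ratio was 165.7, 41.7 and 130.9 in vehicle and 80.5, 87.6 and 79.8 with dDAVP, and at 24 h it was 64.4, 43.4 and 82.0 in vehicle and 67.5, 82.4 and 115.3 with dDAVP. The log2 difference was -1.30 at 3 h and -1.43 at 6 h, each with a two-sided exact permutation p = 0.1, the smallest that 3 against 3 libraries allow. It was -0.23 at 12 h (exact p = 0.9) and 0.49 at 24 h (exact p = 0.2). Over the 4 times the mean difference was -0.61 (exact permutation p = 0.0388 over 160000 arrangements within times), which did not pass after adjustment over these 5 tests (adjusted p = 0.167). Without the second vehicle library of 12 h this mean was -0.77 (exact permutation test, adjusted p = 0.0259), the only 1 of 24 such omissions after which it passed.

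**Figure D4:**
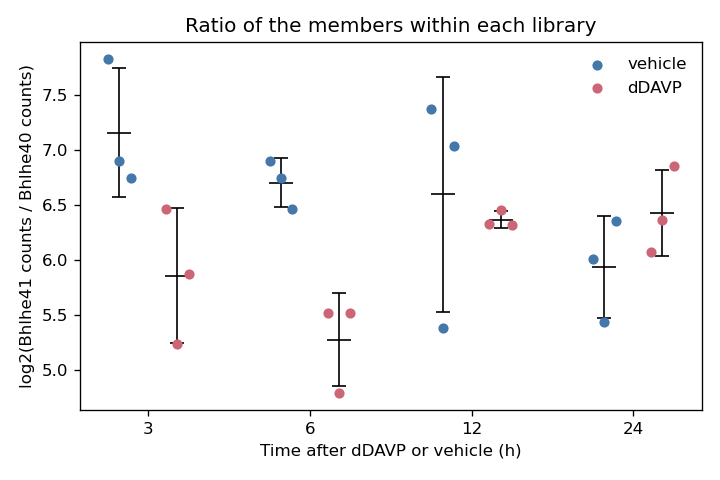
log2 ratio of Bhlhe41 to Bhlhe40 estimated counts in each library by time in hours, blue for vehicle and red for dDAVP, with the mean and SD of 3 as black bars. The dDAVP libraries lie below the vehicle libraries at 3 and 6 h, and the groups overlap at 12 and 24 h.

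The genes whose log2 CPM followed each member most closely over the 24 libraries were unlike. For Bhlhe40, among named genes of at least 5 CPM, they were Ovol1 (r = 0.93), an epithelial zinc finger repressor, the early response gene Ier3 (0.918), the farnesyltransferase subunit gene Fntb (0.917), the hydroxylase gene Jmjd6 (0.902) and the co-chaperone gene Bag2 (0.90). For Bhlhe41 they were the odorant receptor gene Olfr620 (r = 0.964), Dock10, a guanine nucleotide exchange factor gene (0.946), the receptor gene Tnfrsf14 (0.908), Slfn5 (0.871) and the SUMO protease gene Senp7 (0.841). These correlations share library, depth and scaling, and they carry no test. Within groups Olfr620 kept r = 0.968 with Bhlhe41, and Ier3 kept r = 0.92 with Bhlhe40.

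All 5 of these named genes closest to Bhlhe41 have a run of at least 22 A or T in an annotated transcript: 47 T in Olfr620, 32 A in Dock10, 27 T in Tnfrsf14, 22 A in Slfn5 and 24 T in Senp7. With clone and predicted genes let in, the 5 closest were Gm42535, Olfr620, Gm43972, Gm37144 and Gm11225, with longest runs of 29, 47, 40, 32 and 17. This property was looked at after the likeness was seen, and it is a description. Among tested genes whose longest A or T run was under 10 bases, 0 of 19224 had r above 0.9 with Bhlhe41. The share was 0.0112% of 8952 genes with runs of 10 to 19, 0.516% of 1356 with runs of 20 to 29, and 3.61% of 194 with runs of 30 or more. The median r over these 4 classes of run length was 0.375, 0.251, -0.0524 and 0.556, and over genes of at least 5 CPM alone it was -0.612, -0.58, -0.55 and -0.375. Of the 16 other tested genes with a T run at least as long as that of Bhlhe41, 9 had r of 0.624 to 0.964 with it and 7 had r of -0.823 to -0.316. In all, 198 genes have a run of 30 or more, and Bhlhe41 took 41.1 to 69.4% of their summed counts (median 56.3%). The next highest, Akr1a1, had a mean of 8461 estimated counts against 142700 for Bhlhe41. Where reads fell within Bhlhe41 is not given by a table with 1 value per gene, so the part of the T run in the Bhlhe41 counts was not tested.

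The effective length that counts and TPM imply for Bhlhe41 was 2.07 to 2.45 times that of Bhlhe40 over the libraries (median 2.18). For comparison, the longest annotated transcripts have 6133 and 3113 bases.

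Genes within 250 kb of the members gave mixed values. Near Bhlhe40, Itpr1, an inositol trisphosphate receptor gene, differed by 0.13 ± 0.12 at 6 h of dDAVP (edgeR, adjusted p = 0.337), while the lysosomal GTPase gene Arl8b (0.38 ± 0.13, adjusted p = 0.033) and the ER degradation gene Edem1 (0.39 ± 0.11, adjusted p = 0.0188) were higher, close to the median of 0.333 of genes of at least 5 CPM. In mean TPM at 6 h both were slightly lower with dDAVP, 18.06 against 19.1 for Arl8b and 4.62 against 4.93 for Edem1. The r of Itpr1, Arl8b and Edem1 with Bhlhe40 was 0.213, 0.68 and 0.628. Near Bhlhe41, Rassf8 (0.27 ± 0.19, adjusted p = 0.224), Itpr2 (0.22 ± 0.10, adjusted p = 0.0827) and Sspn (-0.91 ± 0.46, adjusted p = 0.104) did not pass, and Lmntd1 was lower (-1.34 ± 0.42, adjusted p = 0.0233). Lmntd1 was low, at a median of 0.898 TPM, and this comparison at 6 h called 38.1% of all genes. For these neighbours r with Bhlhe41 was -0.71 for Itpr2, -0.575 for Rassf8, 0.541 for Sspn and 0.516 for Lmntd1. The overlapping Gm43909 differed by -0.16 ± 0.37 (adjusted p = 0.722), with r = 0.242 to Bhlhe41.

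Clock genes, which these proteins repress or work beside, were read next. At 6 h of dDAVP 8 of 23 were called higher and 2 lower, a share near the 38.1% of all genes called there. Their median difference was 0.26, against -0.394 over all genes tested and 0.333 over genes of at least 5 CPM. With only genes of at least 5 CPM scaled and tested, 1 of 21 was called higher and 3 lower. None of the 23 was called at 3, 12 or 24 h. At a common receptor share 0 of 23 were called at any of the 4 times, and in log2(TPM + 1) 0 were higher and 1 lower at 6 h. The period gene Per1 differed by 0.60 ± 0.16 at 6 h (edgeR, adjusted p = 0.0188), the casein kinase gene Csnk1e by 0.57 ± 0.13 (adjusted p = 0.0133) and the cryptochrome gene Cry1 by 0.50 ± 0.13 (adjusted p = 0.0182). The mean effect over the 4 times was 0.24 ± 0.060 for Arntl, which encodes BMAL1 (adjusted p = 0.0166), 0.13 ± 0.095 for the REV-ERB gene Nr1d1 (adjusted p = 0.24), 0.10 ± 0.054 for Clock (adjusted p = 0.141) and -0.01 ± 0.090 for the output gene Dbp (adjusted p = 0.957). In log2(TPM + 1) the difference of Cry1 at 6 h was -0.06, and the mean effects of Arntl, Nr1d1 and Clock were -0.0062, -0.08 and -0.15, all with the other sign. Csnk1e had near equal mean TPM at 6 h, 49.68 in vehicle and 49.73 with dDAVP. Across libraries r with Bhlhe40 was 0.683 for Per1 and 0.744 for the repressor gene Ciart, while r with Bhlhe41 was 0.675 for Arntl2. Over the 23 clock genes r with Bhlhe41 ran from -0.847 to 0.675. Over the tested markers of the 5 other cell types it ran from -0.599 to 0.747, so a value like that of Arntl2 was not particular to clock genes.

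Partners and relatives were called mainly at 6 h, where 38.1% of all genes were called. Of 12 tested genes for partners and cofactors, among them the dimer partners Id2 and Id3 and the nuclear receptor Rxra, 9 were called higher at 6 h, 0 at 3, 12 or 24 h, and 0 at any time with the share as covariate or at 6 h in log2(TPM + 1). Their median difference at 6 h was 0.397, against 0.333 over genes of at least 5 CPM. Id3 differed by 0.64 ± 0.14 (adjusted p = 0.0111), Rxra by 0.57 ± 0.14 (adjusted p = 0.0175), Id2 by 0.49 ± 0.14 (adjusted p = 0.0191) and Tcf3 by 0.42 ± 0.12 (adjusted p = 0.0206), all at 6 h and in edgeR, while in log2(TPM + 1) Id2 and Tcf3 had the other sign (-0.04 and -0.12). Of 8 tested Hes and Hey genes, which encode repressors of the same domain class, Heyl alone was called at 3 h, higher by 1.84 ± 0.25 (adjusted p = 8.86e-05), and it was also called with the share as covariate (1.81 ± 0.22, adjusted p = 6.62e-06). Heyl was low throughout, at 0.28 ± 0.097 TPM in vehicle and 0.71 ± 0.12 TPM with dDAVP at 3 h (SD, n = 3). At 6 h Hes1 (0.48 ± 0.18, adjusted p = 0.0395) and Hes6 (0.41 ± 0.14, adjusted p = 0.0311) were higher, with the other sign in log2(TPM + 1) (-0.05 and -0.13) and at a common share (-0.06 for each), and Hey1, at a median of 0.16 TPM, was lower (-1.50 ± 0.48, adjusted p = 0.0249). Hey1 was -0.76 ± 0.53 at a common share (adjusted p = 0.921), and no Hes or Hey gene was called at 6 h there or in log2(TPM + 1). None of the 8 was called at 12 or 24 h.

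Hypoxia genes, whose pathway is known to raise both members, and cAMP-inducible genes, which respond to the second messenger of the V2 receptor, gave a contrast. Of 18 hypoxia genes 1 was called higher at 3 h, 12 at 6 h and 0 at 12 and 24 h, against 1, 0, 1 and 0 with the share as covariate, and 0 at 6 h in log2(TPM + 1). Of all genes 0.484, 38.1, 0.0773 and 0.0841% were called at these times, and the median difference of the hypoxia genes at 6 h was 0.486, against 0.333 over genes of at least 5 CPM. The 1 at 3 h was Ndrg1, a stress-responsive gene (0.84 ± 0.16, adjusted p = 0.00607), which was also called with the share (0.62 ± 0.10, adjusted p = 0.000579). The glucose transporter gene Slc2a1 differed by 0.71 ± 0.18 at 6 h (adjusted p = 0.0175), and its r was 0.782 with Bhlhe40 and -0.039 with Bhlhe41. Of 16 cAMP-inducible genes 6, 14, 2 and 3 were called higher at 3, 6, 12 and 24 h, and 6, 6, 6 and 4 with the share, and 4 at 6 h in log2(TPM + 1). With the share 0.726, 0.336, 0.296 and 0.35% of all genes were called at the 4 times, and the medians of the list were 0.51, 0.519, 0.39 and 0.304. Of these, the phosphodiesterase gene Pde4b differed by 1.98 ± 0.16 at 3 h (adjusted p = 4.46e-08) and 1.76 ± 0.16 at 24 h (adjusted p = 6.18e-07). Nr4a2, an immediate early nuclear receptor gene, differed by 2.15 ± 0.15 at 3 h (adjusted p = 1.33e-09) and 0.73 ± 0.15 at 24 h (adjusted p = 0.0575), and the kinase gene Sik1 by 1.17 ± 0.13 (adjusted p = 5.1e-06) and 0.34 ± 0.13 (adjusted p = 1). Nr4a1, of the same receptor family as Nr4a2, differed by 0.65 ± 0.16 at 3 h (adjusted p = 0.0598) and 0.78 ± 0.16 at 24 h (adjusted p = 0.0474), and the kinase anchor gene Akap12 by 1.47 ± 0.13 (adjusted p = 9.53e-08) and 0.68 ± 0.13 (adjusted p = 0.0246). The Bhlhe40 values at these times were 0.85 and -0.13.

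Genes reported as repressed by either protein were called about as often as all genes. Of 8 tested, 2 were higher and 1 lower at 6 h, where 38.1% of all genes were called, and none at 3, 12 or 24 h, and none was called at any time with the share as covariate. The lipid regulator gene Srebf1 was higher at 6 h (0.52 ± 0.13, edgeR, adjusted p = 0.0165), and the cholesterol exporter gene Abca1, at a median of 0.0493 TPM, was lower (-1.42 ± 0.44, adjusted p = 0.0227).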

How the data were processed

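RNA was measured in 24 mpkCCD libraries (8 groups of 3). Per the labels' protocols, SMART-Seq HT was used for cDNA synthesis and Nextera reagents for the libraries. The authors deposited estimated counts per gene, not normalized, and TPM (transcript abundance per gene, scaled to the same total in each library). Salmon 0.14.10 and the build GRCm38.p6 are named per the submitters' processing notes, and the sources used here do not give its settings. Every column matched a label (0 left out), and 54346 of 54432 identifiers matched a GENCODE M21 symbol, while 86 did not. Replicates were not copies: the chi-square per gene between them was 2.63 to 40.6.

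Estimated counts were rounded and fitted with edgeR 4.0.16 (limma 3.58.1, DESeq2 1.42.0, R 4.3.3). Low counts were removed by filterByExpr over the 8 groups, library sizes were scaled by TMM (0.814 to 1.33), 1 mean was fitted per group, genes were tested by quasi-likelihood F tests, and p-values were adjusted (Benjamini-Hochberg) over 29743 genes, with a threshold of 0.05. Where the receptor share was a covariate, its centred log2 value entered the model. The fit was tested on simulated data, in which all libraries had a common profile apart from changes set in the dDAVP groups. No difference in receptor share was built in, so that simulation does not bear on the scaling or the share. The 3 main correlations used 100000 permutations over all 24 libraries, without regard to group. The members, the gene lists and the tests were chosen with earlier results of these data known. Named genes are both members, Aqp2, up to 4 called genes per list and comparison by p (at least 2 by the mean effect where none was called), Per1, Nr1d1, Dbp, Clock and Arntl, genes within 250 kb of a member, and the 5 genes of highest r with each member. One gene that this rule names is not reported here. Akr1a1, Ciart, Arntl2, the clone and predicted genes and the most counted genes were named after their values were seen. Alternatives were RLE scaling, DESeq2, other filters, limma on log2 TPM (pseudocounts 1 and 0.1), a replicate block, each library left out in turn, a threshold of 0.01, and fits of only the libraries compared. Precision is limited by 3 libraries per group.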

Additional observations from a re-analysis of the deposited data

How the results depend on the processing

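With the receptor share as covariate, Bhlhe40 was 0.58 at 3 h, 0.23 at 6 h, 0.22 for the mean effect, 0.069 for vehicle 24 h against 3 h and -0.70 for dDAVP 24 h against 3 h, and the test over dDAVP times gave an adjusted p of 0.00225. Bhlhe41 was 0.14 at 6 h, 0.27 at 12 h, 0.21 for the mean effect, 0.13 for vehicle 24 h against 3 h and 0.69 for dDAVP 24 h against 3 h (adjusted p = 0.00129 over dDAVP times), and Clock, Hes1 and Hes6 turned to -0.0040, -0.059 and -0.064. A share over protein-coding receptor genes alone, chosen after seeing the data, gave 0.58, 0.23, 0.22, 0.069, -0.70 and an adjusted p of 0.00228 for Bhlhe40, 0.14, 0.27, 0.21, 0.13, 0.69 and 0.0013 for Bhlhe41, and -0.0039, -0.059 and -0.064 for the 3 others. In limma on log2(TPM + 1), Bhlhe40 was 0.50 at 3 h, 0.16 at 6 h, 0.18 for the mean, 0.070 for vehicle 24 h against 3 h and -0.083 for the slope, and Bhlhe41 was -1.20 at 6 h, 0.018 at 12 h and -0.0018 for dDAVP 24 h against 3 h. With a pseudocount of 0.1 these were 0.52, 0.16, 0.19, 0.074 and -0.087 for Bhlhe40, with 0.019 and -0.0018 for Bhlhe41 at the last 2 and -1.11 for vehicle 24 h against 3 h. Signs turned in log2(TPM + 1) and log2(TPM + 0.1) for Arntl (-0.0062 and -0.0069), Clock (-0.15 and -0.19), Cry1 (-0.062 and -0.072), Hes1 (-0.051 and -0.052), Hes6 (-0.13 and -0.14), Id2 (-0.042 and -0.042), Nr1d1 (-0.081 and -0.14), Pfkfb3 (-0.021 and -0.023) and Tcf3 (-0.12 and -0.12). RLE scaling gave 0.93 for Bhlhe40 at 3 h, and -0.57 at 6 h, 0.10 at 12 h and -0.48 for vehicle 24 h against 3 h for Bhlhe41, with 0.062 for Dbp. DESeq2 gave 0.10 and -0.48 for the last 2 of Bhlhe41, an adjusted p of 0.0385 over dDAVP times, and 0.062 for Dbp. No filter gave -0.66, 0.056 and -0.55 for Bhlhe41 at 6 h, at 12 h and in vehicle 24 h against 3 h, and 0.021 for Dbp. The filter of 5 CPM gave -0.50 for Bhlhe40 in dDAVP 24 h against 3 h, 0.31 in vehicle, -0.18 for the slope and an adjusted p of 0.0199 over dDAVP times, and -0.040 for Clock. With only the libraries compared, Bhlhe40 was 0.78 at 3 h, and the tests over dDAVP times gave adjusted p of 0.0438 for Bhlhe40 and 0.00386 for Bhlhe41. At a threshold of 0.01 the values of Bhlhe40 at 3 h (0.85), 6 h (0.78) and vehicle 24 h against 3 h (0.58), and of Bhlhe41 at 6 h (-0.68) and vehicle 24 h against 3 h (-0.66), were no longer called. Without the 2 libraries of highest share, an alternative chosen after seeing the data, the values were 0.68 for Bhlhe40 at 3 h, 0.41 for vehicle 24 h against 3 h, and 0.20 and -0.49 for Bhlhe41 at 12 h and in vehicle. The r of Bhlhe40 with the share was -0.049 in log2 TPM and -0.31 with plain totals. The cause of these changes was not tested.

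The replicate numbers did not pair the libraries (r of same-numbered deviations above 0.1 in 4 of 12 pairs, from -0.187 to 0.453), and as a hint only, the replicate block gave adjusted p of 0.0338 and 0.0238 for Bhlhe40 over dDAVP and vehicle times. Log2 differences with the other sign under the block, neither called, were 0.033 for Bhlhe41 at 12 h and 0.0015 for the mean effect on Dbp. With the replicate block 587 genes were called in dDAVP 24 h against 3 h, against 386, and it changed no other call of either member.

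Leaving out each library gave, for Bhlhe40, 0.67 to 1.06 at 3 h, 0.47 to 0.83 at 6 h, -0.23 to 0.10 at 24 h and 0.35 to 0.69 in vehicle 24 h against 3 h. For Bhlhe41 it gave -0.84 to -0.60 at 6 h, -0.31 to 0.20 at 12 h, -0.28 to -0.13 for the mean, -0.79 to -0.49 in vehicle 24 h against 3 h, and adjusted p of 0.00442 to 0.31 over dDAVP times and 0.00168 to 0.4 over vehicle times. The log2 ratio of the pair gave -0.84 to 0.16 at 12 h and -0.77 to -0.52 for the mean, and the mean effect on Dbp gave -0.063 to 0.027. Where a group was left with 2 libraries, the spread was pooled over groups. Fits of the slope other than with RLE, the 5 CPM filter or the block were chosen after seeing the data.

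Scaling moved the median gene at 6 h by 0.105 with RLE and -0.306 with the 5 CPM filter. The genes called there were 6203 higher and 5117 lower, against 3414 and 4494 with RLE, 1489 and 3443 with no filter, 722 and 1778 with the 5 CPM filter, 44 and 626 in log2(TPM + 1), and 62 and 6253 in log2(TPM + 0.1). At 3 h 144 genes were called, against 70 with RLE, 267 with the 5 CPM filter and 98 without the 2 libraries of highest share, and for the mean effect 9854 against 6300, 3963 and 679 in the same 3 settings.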
